A study of Drosophila melanogaster with 3 samples.

Results

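Of the 9459 reproducible binding sites of Pipsqueak listed for whole Drosophila larvae, 297 (3.14%) had their summit inside an annotated exon and more than 500 bp from any annotated transcription start site. A summit is the point of highest signal that the authors gave for each peak. These exonic peaks were chosen by position alone and fell into 4 classes: 110 lay in a 5' UTR, 23 in a coding exon, 69 in a 3' UTR and 95 in an exon of a gene that codes for no protein (84 in genes annotated as long noncoding RNAs and 11 in antisense RNAs, the other exon class of the plots). Chromatin immunoprecipitation and sequencing was done on wandering third-instar larvae, males and females pooled, from a transgenic line in which GFP is fused to the C terminus of Pipsqueak, with an antibody against GFP. The 3 samples were biological replicates of this 1 group, so no conditions could be compared, and neither a line without the fusion nor a control library was analysed here. Whole animals were used, so a site bound in few cells and a site bound weakly in many cells cannot be told apart. No read counts are in the peak lists, so depth is unknown and no counting error can be given.

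Pipsqueak, the product of psq, is a nuclear protein with a BTB domain for protein contacts and a repeated helix-turn-helix domain that binds GA-rich DNA. It is one of the GAGA-associated factors, with the GAGA factor Trl and Lolal, and is known for its roles in Polycomb-group silencing, in oogenesis and in the eye. Untranslated regions are the transcribed stretches before and after the reading frame, and DNA that encodes them can also hold regulatory elements.

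The letters GAGAG, the core of the sequence bound by GAGA-associated factors, lay within 50 bp of 76 of the 297 summits, and the windows below show them in context. They are the strongest such peaks of the 5' UTR, 3' UTR and noncoding classes on the arms from which sequence is shown, with a coding peak for comparison. Each is 29 bases of dm6 (RefSeq release of the genome) read 5' to 3' on the strand of the host gene, and capitals mark GAGAG or its reverse complement CTCTC, with any overlapping repeat of it.
crol, 5' UTR, chr2L:11808101-11808129, minus strand: gttcaccaccgcCTCTCacccgcgcggcg
Ssdp, 5' UTR, chr3R:18197001-18197029, minus strand: cacacgtacggcGAGAGcgcgctaaaaag
CG6051, 5' UTR, chr3R:27150531-27150559, minus strand: gtttgtgtgcgcGAGAGcaaggacaacaa
spi, 5' UTR, chr2L:19571682-19571710, minus strand: ccaagaatgaaaGAGAGcaaggcaacatg
rudhira, 5' UTR, chrX:11817648-11817676, plus strand: acggagcaaaaGAGAGAGaaagagcaaga
Ubr1, coding exon, chrX:16967666-16967694, minus strand: gcgagtgcaagcGAGAGcaacgatggatc
chm, 3' UTR, chr2L:7422597-7422625, plus strand: agaggaggggcaGAGAGgtgtgcagacca
Tctp, 3' UTR, chr3R:11211752-11211780, plus strand: gttcgtcgcgtGAGAGatgcgcacagtgg
lncRNA:CR45036, noncoding exon, chr3L:11365491-11365519, plus strand: gccaccgaaaacGAGAGggtgttgtcggg
lncRNA:CR44619, noncoding exon, chrX:12754219-12754247, plus strand: ttgacattgcaaGAGAGtagcggaaagcg
lncRNA:CR45196, noncoding exon, chr3R:9229511-9229539, plus strand: tttcccattCTCTCTCTCTCtgtcttctc
In 4 of these 5 windows from 5' UTRs the strand of the transcript carried GAGAG rather than CTCTC, and the counts over all 110 such summits are given further on.

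The classes differed widely in how many summits they held for their length. Beyond 500 bp of start sites, 5' UTR sequence held 105.5 optimal summits per Mb and noncoding exons held 86.5 per Mb. Both lay above introns and intergenic sequence combined, which held 54.6 per Mb, and below promoters, which held 224.6 per Mb. The median distance to a start site was 700.5 bp for 5' UTR summits and 945 bp for noncoding summits. It was 2926.5 bp for intron and 3268 bp for intergenic summits, and densities at a matched distance were not computed. Untranslated sequence after the reading frame was sparse, with 11.6 summits per Mb of 3' UTR, and coding exons held 1.25 per Mb. Coding sequence made up 13.4% of the chromosome arms and 0.243% of the summits, whereas 5' UTR sequence made up 0.758% of the arms and 1.16% of the summits.

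The order of the classes was the same in every replicate. Each replicate list has 30000 entries and includes background, so it was reduced to its 9459 entries of highest signal (the top list). The top lists held 299, 320 and 321 exonic summits in replicates 1, 2 and 3, or 3.31 ± 0.131% of entries (SD, n = 3). Densities were 109.9 ± 7.45 per Mb for 5' UTRs, 1.68 ± 0.143 for coding exons, 11.7 ± 0.593 for 3' UTRs and 89.5 ± 0.526 for noncoding exons, against 54.4 ± 1.08 for introns and intergenic sequence (SD, n = 3). The gaps between these classes were wider than the spread between replicates. The count of 5' UTR peaks depended on the distance that defines a promoter, and it was 276 with a distance of 250 bp and 20 with 1000 bp.

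**Figure D1:**
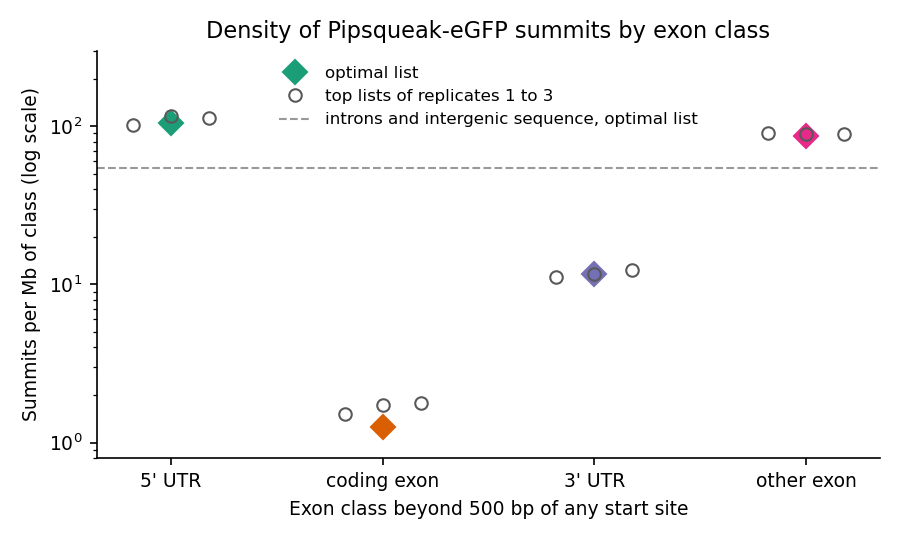
Summits per Mb of each exon class beyond 500 bp of start sites, on a log axis, in the optimal list (diamonds) and in the top lists of replicates 1 to 3 (open circles, left to right). The dashed line marks introns and intergenic sequence at 54.6 per Mb: 5' UTRs and noncoding exons lie above it, 3' UTRs and coding exons below it in every list.

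Signal, as the authors gave it per peak on a scale that is not stated, was highest in the 5' UTR class. The median was 473 for 5' UTR peaks, 285 for coding peaks, 353 for 3' UTR peaks and 355 for noncoding peaks, against 384 for promoter, 357 for intron and 327 for intergenic peaks. The strongest 10% of the optimal list took in 37 of the exonic peaks (12.5%), against 9.91% of all other optimal peaks. Those 37 comprised 17 in 5' UTRs, 6 in 3' UTRs, 14 in noncoding exons and none in coding exons.

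**Figure D2:**
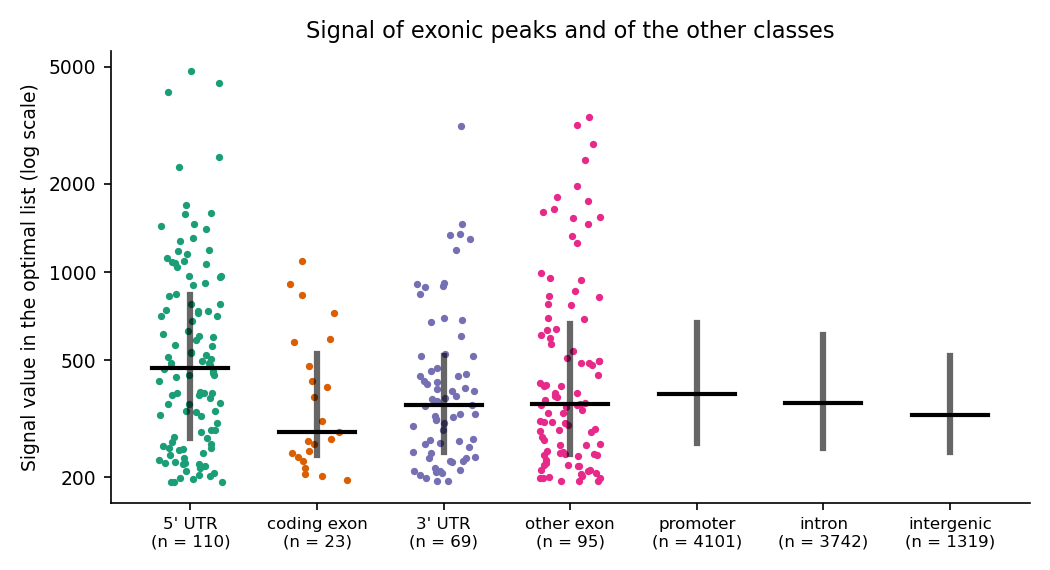
Signal value of each exonic peak in the optimal list (points, log axis) by class, with the median (horizontal bar) and the range from the first to the third quartile (vertical bar), and the same bars for promoter, intron and intergenic peaks. The 5' UTR class has the highest median, 473, and the coding class the lowest, 285.

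Because signal belongs to its own list, replicates were compared by rank, where 1 is the highest signal, using the replicate entry whose summit lay nearest. Peaks in 5' UTRs had median ranks of 4858.5, 3343.5 and 3107.5 in replicates 1, 2 and 3, against 4571.5, 4751.5 and 4739 for all other optimal peaks. They thus ranked above the other peaks in replicates 2 and 3 and below them in replicate 1. Coding peaks ranked lower than the other peaks in all 3 replicates, at 5964, 5485 and 5780. Both orders depended on how entries were matched. With the strongest overlapping replicate entry in place of the nearest summit, medians were 3573.5, 2693 and 2646.5 for 5' UTR peaks and 5480, 2638 and 2818 for coding peaks, against 3803.5, 4014 and 3992 for the rest. Peaks in 3' UTRs had median ranks of 5009, 5107 and 4801, and noncoding peaks 4632, 5076 and 5203. Over the exonic peaks as a whole the median rank, as a percentage of the list counted from the top, was 14.9 ± 1.17, against 15.6 ± 0.335 for the rest (SD, n = 3). The mean difference of -0.68 points was smaller than its SD of 1.49, and the exact two-sided sign-flip permutation test gave p = 0.5, where 3 replicates cannot give less than 0.25. With a promoter distance of 1000 bp the difference was 2.34 points, so that the remaining exonic peaks ranked lower than the rest in the mean (exact permutation test, p = 0.25).

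Replicate 1 gave the lowest of the 3 ranks to 72 of 110 5' UTR peaks (65.5%), 16 of 23 coding peaks, 29 of 69 3' UTR peaks and 44 of 95 noncoding peaks, against 37.6% of all other optimal peaks. Mean GC content within 50 bp of the summit was 44.9% in 5' UTRs, 50.8% in coding exons, 38.3% in 3' UTRs and 39.5% in noncoding exons, against 37.8% in the rest. Among exonic peaks of at least 40% GC, 66.3% ranked lowest in replicate 1, against 34.5% of those below 40%. In the rest of the list the same shares were 51.9% and 27.4%. Below 40% GC, 13 of 25 5' UTR peaks (52.0%) and 4 of 4 coding peaks ranked lowest in replicate 1. In the other classes this held for 7 of 36 3' UTR peaks (19.4%) and 15 of 48 noncoding peaks (31.25%). The part of GC content in the replicate ranks was not tested.

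**Figure D3:**
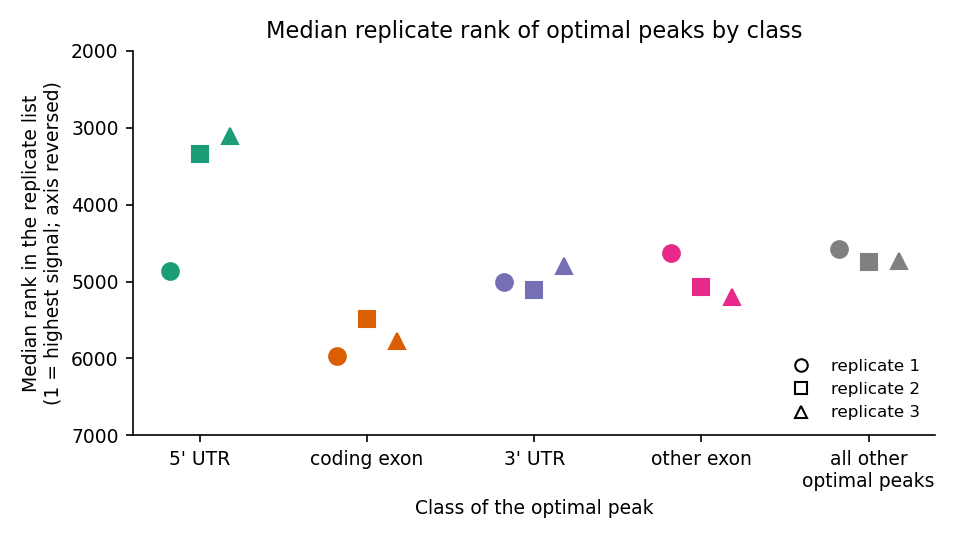
Median rank of optimal peaks in the list of replicate 1 (circles), 2 (squares) and 3 (triangles) by class, with the axis reversed so that higher signal is up. Peaks in 5' UTRs are above all other optimal peaks in replicates 2 and 3 but not in replicate 1, at 4858.5 against 4571.5, with entries matched by the nearest summit.

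Exonic peaks and the whole list had like support at the overlap of 1 bp used here. The top list of every replicate overlapped 238 of the 297 exonic peaks (80.1%), against 80.7% of the remaining peaks and 80.7% of all 9459. With a reciprocal overlap of 50% the shares were 50.2% of exonic peaks and 56.1% of the rest. By class, the top list of every replicate overlapped by 1 bp or more 93 of 110 5' UTR peaks (84.5%), 19 of 23 coding peaks (82.6%), 49 of 69 3' UTR peaks (71.0%) and 77 of 95 noncoding peaks (81.1%). With the reciprocal overlap of 50% the class shares were 48.2, 52.2, 50.7 and 51.6% in the same order. In single replicates the share overlapped was 88.6, 93.6 and 94.6% for exonic peaks and 91.2, 92.4 and 92.3% for the rest. The mean difference of 0.28 points had an SD of 2.61 points over the 3 replicates (exact two-sided sign-flip permutation test, p = 1), and its sign changed to -0.20 without replicate 2 and -0.71 without replicate 3. For 3' UTR peaks the difference was -3.57 ± 3.20 points, lower in 3 of 3 replicates (SD, n = 3). A single exonic peak, in the 5' UTR of Dlg5, was overlapped by none of the top lists, with ranks of 9508, 10355 and 10140.

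The class of exonic summits varied more between lists than that of the other summits. The nearest replicate summit had the same class for 92.6 ± 1.47% of exonic peaks, against 98.3 ± 0.421% of all other peaks (SD, n = 3), a difference of -5.69 ± 1.48 points with the same sign in 3 of 3 replicates. The class was the same in all 3 replicates for 247 exonic peaks (83.2%), against 95.8% of the rest. The median distance from an exonic summit to the nearest replicate summit was 25, 13 and 13 bp, against 25, 16 and 15 bp for the rest, so exonic summits did not shift further. The exons that held the summits had a median length of 1138 bp, and 48 of the 297 summits lay within 50 bp of an exon edge. The part of exon edges in the class changes was not tested.

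The 5' UTR class held the 3 strongest exonic peaks. The strongest was in Uba1, which encodes the E1 enzyme that activates ubiquitin, on 2R, with a signal of 4827 and ranks of 32, 32 and 23 in replicates 1, 2 and 3. Next came klar, whose KASH-domain protein tethers nuclei and lipid droplets to microtubule motors, on 3L with a signal of 4407 and ranks of 80, 37 and 25. The peak in crol, on 2L, had a signal of 4100 and ranks of 34, 63 and 109. crol encodes a zinc finger protein of the ecdysone response at metamorphosis. These summits were among the strongest of every replicate. The Uba1 summit lay 525 bp from a start site of Uba1, just beyond the promoter distance, and its entry spans a start site. The crol summit was not the strongest of its set of overlapping entries, which an intron summit led. Of the transcripts that span the position, 2 of 6 were exonic there for klar and 4 of 9 for crol. The peaks of tws, which encodes a regulatory subunit of protein phosphatase 2A, and Tango5, a gene named for its role in transport and Golgi organization, followed with signals of 2462 and 2280. Their ranks were 329, 213 and 133 for tws and 260, 249 and 196 for Tango5. The position was exonic in 6 of 9 spanning transcripts for tws and in 1 of 5 for Tango5.

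Most 5' UTR summits lay near a start site although outside the promoter distance. The median distance was 700.5 bp, and 90 of 110 were within 1 kb. In 71 of the 110 the exon was the first of a transcript, and in 58 the position was exonic in every transcript that spans it, whereas in 52 it was intronic in some. The 94 host genes of the class included 65 (69.1%) with an optimal summit in their own promoter, against 27.4% of all protein-coding genes. A summit in the promoter and a summit in the 5' UTR of the same gene can come from overlapping entries, so this share is a description.

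Coding peaks were few and weaker. Among those described here, otp, a homeobox gene on 2R, had a signal of 914 and ranks of 912, 1629 and 1688. The peak in CG7069, a pyruvate kinase paralogue, had a signal of 838 and ranks of 5964, 1245 and 1066. That of sdk, which encodes a cell adhesion protein of the immunoglobulin superfamily, had a signal of 724 and ranks of 4843, 1501 and 1985. G9a, a gene for a histone H3 lysine methyltransferase, had a signal of 592 and ranks of 5480, 2104 and 2299. The last 3 ranked far lower in replicate 1 than in replicates 2 and 3. The coding class also held another klar summit, beside the pair in the 5' UTR, with a signal of 478 and ranks of 1651, 6181 and 4377. Of the 23 coding summits 8 were not the strongest of a set of overlapping entries, and for 3 of these a promoter summit led the set.

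The 3' UTR class was led by CG4004 on X. Its 3' UTR held a pair of summits in overlapping entries, with signals of 3135 and 1301, and the stronger had ranks of 132, 75 and 97. CG7872 on X had a signal of 1454 and ranks of 275, 627 and 1012. CG13405 on 3L had a signal of 1351 and ranks of 1469, 529 and 625. Ance-3, a gene related to the angiotensin-converting enzyme gene, had a signal of 1334 and ranks of 475, 758 and 800. Ppa, which encodes an F-box protein that targets the Paired protein, held 3 summits in its 3' UTR on 2R, with signals of 1189, 404 and 363. The strongest Ppa summit had ranks of 1022, 795 and 978. Peaks of this class were far from start sites, at a median of 1627 bp, and only 15 of 69 lay in sets of overlapping entries.

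Noncoding peaks included 29 whose summit lies within the span of a protein-coding gene, in 20 of them a gene on the opposite strand. The strongest was in lncRNA:CR46035, with a signal of 3366 and ranks of 44, 87 and 119. Its summit lies within the span of osa, on the opposite strand, the gene for a subunit of the Brahma chromatin remodelling complex. lncRNA:CR45036 had a signal of 3163 and ranks of 290, 105 and 76, and lncRNA:CR44619 had 2740 and ranks of 315, 103 and 132. lncRNA:CR45196, antisense at its summit to the translational repressor gene pum, had a signal of 2403 and ranks of 833, 72 and 456. lncRNA:CR44468 on 2R had a signal of 1957 and ranks of 203, 337 and 442. lncRNA:CR43334 held 5 exonic summits, the most of any gene, with signals between 198 and 1453, and lncRNA:CR45531 held 4, between 367 and 1542. These 2 genes, klar and Ppa were the only hosts of 3 or more exonic summits, while 197 of the 245 host genes held 1 each.

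GAGAG, sought on either strand within 50 bp of the summit, was found at 76 exonic summits (25.6%), against 16.7% of all other optimal summits and 17.0% of the whole list. At points 500 bp to either side it was found in 11.1% of windows for exonic peaks and 13.8% for the rest. In the top lists of the replicates the share was 24.5 ± 2.18% at exonic summits and 13.1 ± 1.39% at their flanks (SD, n = 3). The excess of summits over flanks was 11.5 ± 1.58 percentage points for exonic peaks, against 2.93 ± 1.38 for the rest, and it was greater for exonic peaks in 3 of 3 replicates, by 8.54 ± 1.61 points. The exact two-sided sign-flip permutation test of that difference gave p = 0.25, the smallest that 3 replicates allow. The size of the exonic excess depended on the windows, at 6.56 points with windows of 25 bp to each side and 7.60 points with flanks 300 bp away. The longer GAGAGAG was counted too. Its excess was 2.16 ± 0.90 points for exonic peaks, against 1.66 ± 0.66 for the rest (SD, n = 3). In 5' UTRs it was 3.07 ± 3.48 points, which did not exceed its spread.

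The share differed between classes. GAGAG was present at 40 of 110 5' UTR summits (36.4%, against 12.3% at flanks), 13 of 69 in 3' UTRs (18.8%, against 9.42%), 19 of 95 in noncoding exons (20.0%, against 11.1%) and 4 of 23 in coding exons (17.4%, against 10.9%). Over the replicates the excess was 18.4 ± 3.15 points in 5' UTRs, 12.5 ± 2.13 in 3' UTRs, 5.94 ± 1.95 in noncoding exons and 0.95 ± 2.50 in coding exons, where it did not exceed its spread. For comparison, GAGAG was in 14.4% of all windows of this width in 5' UTR sequence, 12.5% of coding, 9.996% of 3' UTR and 11.2% of noncoding windows, and in 11.4% of windows across the arms. At coding summits the shares in the top lists, 14.3, 12.5 and 15.2%, lay at or little above the coding level.

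Sequences of like composition were counted in the same way. At exonic summits the excess over flanks was 3.45 ± 0.971 points for GGAAG, 4.53 ± 1.51 for AGGGA and 5.996 ± 1.59 for GAAAG, each lower than the 11.5 of GAGAG. These excesses too were greater for exonic peaks than for the rest, in 3 of 3 replicates each. The difference from the rest was 4.53 ± 1.11 points for GGAAG, 4.385 ± 0.92 for AGGGA and 2.8 ± 2.4 for GAAAG (SD, n = 3). For GAGAG it was 8.54 ± 1.61. In 5' UTRs GAGAG had the greatest excess of these motifs. In 3' UTRs its mean excess of 12.5 ± 2.13 points overlapped that of GAAAG, 8.56 ± 3.49 (SD, n = 3), and in the optimal list GAAAG was at 26.1% of 3' UTR summits, against 15.2% of their flanks. In noncoding exons AGGGA had 7.80 points, more than GAGAG, and in coding exons GGAAG had 14.1 points, so in those classes GAGAG did not have the greatest excess.

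**Figure D4:**
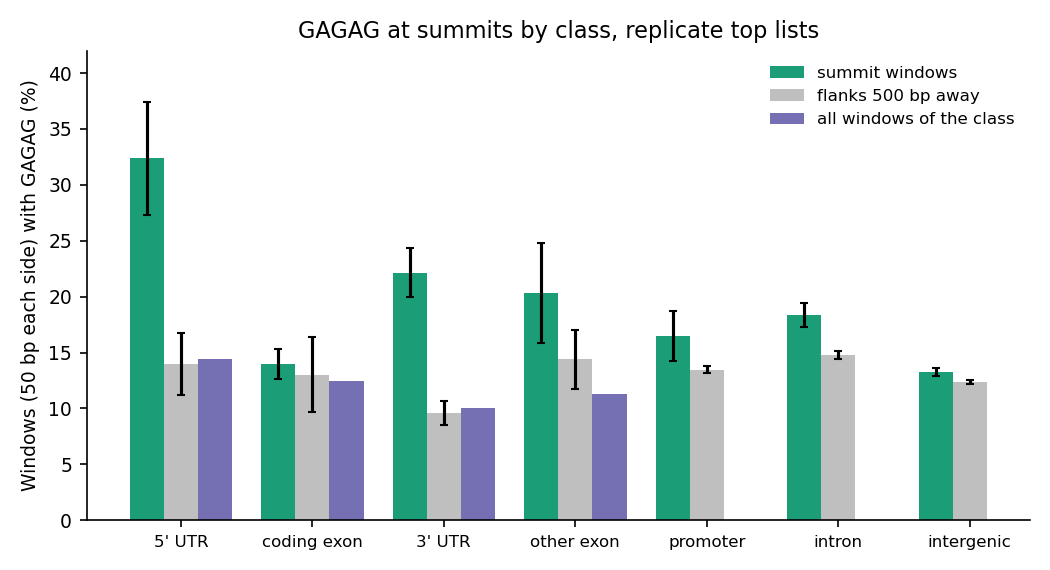
Share of windows of 50 bp to each side with GAGAG on either strand at summits and at points 500 bp away, as means of the replicate top lists with SD (n = 3), and in all windows of the class where it is an exon class. Summits exceed flanks most in 5' UTRs, 32.4 against 13.97%, and hardly differ from them in coding exons.

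In 5' UTRs the motif lay mostly as GAGAG on the strand of the transcript. The comparison of strands was added after the data were seen. Read on the strand of the host gene, 32 of the 110 windows held GAGAG alone, 5 held CTCTC alone and 3 held both. In the top lists GAGAG was found on the transcript strand in 27.1 ± 6.22% of 5' UTR windows and CTCTC in 7.30 ± 1.26% (SD, n = 3), a mean difference of 19.8 points with the same sign in 3 of 3 replicates. All 5' UTR windows showed a smaller imbalance in the same direction, with GAGAG in 9.50% and CTCTC in 5.47%. At 3' UTR summits the shares were 10.9 ± 1.23% for GAGAG and 12.4 ± 1.65% for CTCTC, with equal shares in replicates 2 and 3. In the optimal list the 3' UTR shares were 11.9% for GAGAG and 8.96% for CTCTC. At coding summits they were 9.55 ± 2.49% and 4.43 ± 2.35%, with GAGAG higher in 2 of 3 replicates. At noncoding summits they were 11.2 ± 4.47% and 9.83 ± 0.562%, a difference within the spread.

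Among windows placed every 50 bp along the host strand, the share with GAGAG around optimal 5' UTR summits was 36.4% at the summit and reached its highest value, 44 of 110 windows, at 50 bp downstream, and it was 12.7% at 500 bp upstream and 11.8% at 500 bp downstream. Later exons held the motif at 18 of 39 summits (46.2%), against 22 of 71 (31.0%) in first exons.

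**Figure D5:**
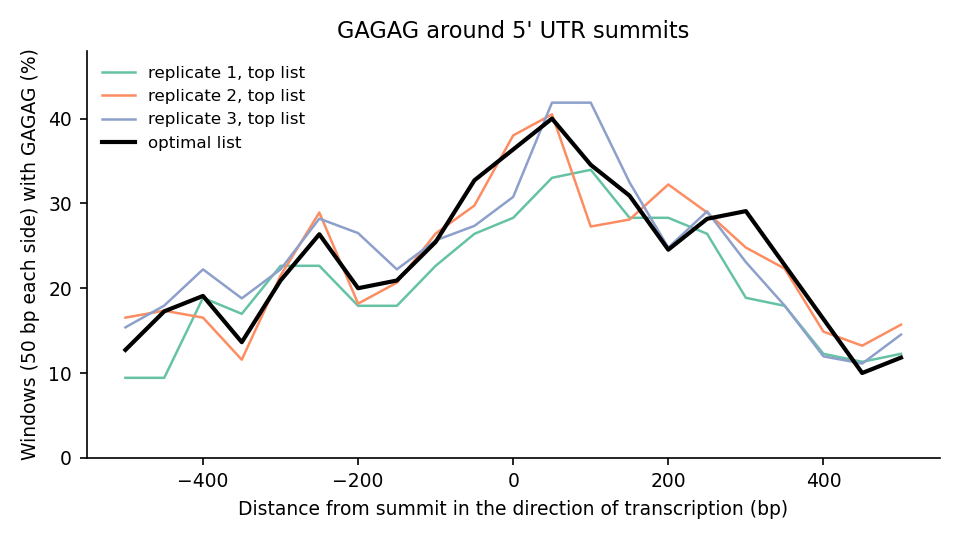
Share of windows of 50 bp to each side with GAGAG on either strand by distance from 5' UTR summits in the direction of transcription, for the optimal list (black) and the top lists of replicates 1 to 3. The share peaks within 100 bp downstream of the summit, in 44 of 110 windows of the optimal list, and is near the class level of 14.4% at 500 bp.

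Exonic peaks were hosted by 173 of 13968 protein-coding genes (1.24%) and 72 of 3289 noncoding RNA genes (2.19%). None of 30 Polycomb, Trithorax and GAGA-associated genes, 16 Notch pathway genes or 8 Hox genes hosted one, and psq itself had no exonic summit outside promoters. At a share of 1.24% over all protein-coding genes, lists this short can lack a host without differing from other genes. Summits in antisense RNAs were counted for the RNA. That of asRNA:PS4, with a signal of 207, lay within the span of Ubx, and that of lncRNA:CR46035 within the span of osa. Of 18 genes of the Hippo pathway and growth, 3 were hosts (16.7%). CycE, the G1 cyclin gene, had a 5' UTR peak of signal 1186 with ranks of 4798, 540 and 868. wts, the gene for the kinase that inhibits Yorkie, had a 5' UTR peak of signal 917 and ranks of 1082, 1575 and 1349, and at 6029 bp it was far from any start site. The 3' UTR peak at Myc, a growth regulator gene, had a signal of 459 and lies where the annotation also places CG12535.

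Of 15 ecdysone response genes, crol and ftz-f1 were hosts (13.3%). ftz-f1, a nuclear receptor gene that sets competence for the prepupal response, held 2 summits in a 5' UTR, with signals of 479 and 285. The cytoskeleton and adhesion list had 4 hosts of 28 (14.3%). The strongest were kst, the heavy spectrin gene, with a 5' UTR peak of signal 426, chic, the profilin gene, with a 3' UTR peak of 424, and Nrg, the neuroglian gene, with a 5' UTR peak of 382. The Nrg peak ranked 23790 in replicate 1, against 3367 and 3239 in replicates 2 and 3. Of 27 RNA-binding and translational regulators, elav and cpo were hosts (7.41%), with signals of 226 and 193, near the lower end of the list. Of 32 zinc finger and homeodomain regulators the hosts were crol and inv (6.25%), and inv had a 3' UTR peak of signal 289 on 2R. These shares are counts over short lists that were chosen with results of these data known, and gene length was not taken into account.

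Exonic peaks were more often on the X chromosome than the other peaks. X held 71 of 297 exonic summits (23.9%), against 19.3% of the rest, and in the replicate top lists 26.8 ± 0.347%, against 19.2 ± 0.63% (SD, n = 3). X holds 19.1% of the exonic bases outside promoters. By class it held 23 of 110 5' UTR summits, 9 of 23 coding, 21 of 69 3' UTR and 18 of 95 noncoding summits, while its share of the bases was 21.9% for 5' UTRs, 17.7% for coding exons, 23.5% for 3' UTRs and 14.6% for noncoding exons. The larvae were pooled males and females, and the dose of X in the chromatin was not measured.

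At the edge of the distance rule, 14 exonic summits lay 501 to 525 bp from a start site, with a median signal of 788, and 16 summits in exons lay 476 to 500 bp from one and were counted as promoter summits, with a median of 330. The nearest outside the distance was CG33144 at 501 bp, with a signal of 466, and the nearest within it were lncRNA:CR43836 and asRNA:CR45171, both at 499 bp, with signals of 321 and 193. In the optimal list 133 of 297 exonic entries (44.8%) overlapped another entry, against 37.6% of the rest. In 67 cases the exonic summit was not the strongest of its set, and in 17 of these cases a promoter summit led the set.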

How the data were processed

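Chromatin of 3 biological replicates, sonicated to 200 to 800 bp per the labels, was immunoprecipitated through the GFP tag. The deposited peak lists on dm6 were used. According to the text files that accompany the deposited samples, the replicate lists are input of a reproducibility step (IDR) and the optimal list is its output. No source used here names the aligner, the peak caller or the threshold. The signal value of each entry is the authors' own, on a scale not stated, and served to rank and describe peaks within a list. The authors' −log10 of the q-value was not used in any result. The summit is the deposited start of the entry plus its summit offset.

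Gene models were from Ensembl release 115, without 5889 transposable element genes, and sequence was from RefSeq. A summit took the first fitting class of promoter (within 500 bp of a start site), 5' UTR, coding sequence, 3' UTR, exon of a noncoding RNA gene, intron and intergenic. Support was an overlap of at least 1 bp with a replicate's 9459 strongest entries. Replicate ranks came from the overlapping entry with the nearest summit, a choice made after the values had been seen. Replicates were tested with an exact two-sided sign-flip permutation test, smallest p 0.25. Peaks were not used as replicates. No correction for several tests could bring these p-values under a threshold. Class assignment, overlaps, motif search and the permutation were tested on simulated data. Named genes were the hosts of the 5 strongest peaks of each class, of 3 or more exonic summits, and up to 3 hosts per gene list. The strongest peak of the coding class is not reported here. The members and lists were chosen with earlier results of these data known. Python 3.11.15, numpy 2.4.6, pandas 2.3.3 and matplotlib 3.10.9 were used.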

Additional observations from a re-analysis of the deposited data

How the results depend on the processing

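Alternatives were computed for counts, replicate shares, support, ranks and GAGAG, and RefSeq gene models gave the same 297 peaks. The exonic count was 560 with a promoter distance of 250 bp (276 in 5' UTRs, 35 coding, 166 noncoding) and 139 with 1000 bp (20, 13 and 43). With start sites of protein-coding genes only there were 216 noncoding peaks, since noncoding start sites no longer removed any. With 1 entry per set of overlapping entries there were 15 coding peaks. The stronger 50% of the list held, by construction, fewer: 158, of which 69 in 5' UTRs, 10 coding, 33 in 3' UTRs and 46 noncoding. Top lists of 50% of the size had shares of 1.39% in 5' UTRs, 0.240% coding, 0.656% in 3' UTRs and 1.01% noncoding.

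The difference in support, as the mean over the replicates taken singly, was -0.60 points with a reciprocal overlap of 50% and -0.14 with 1 entry per set. It was -0.71 to 1.76 with single replicates left out. For support by the top list of every replicate, the difference was -5.98 points with a reciprocal overlap of 50% and -2.04 with 1 entry per set. The rank difference was 0.27 with 1 entry per set and 2.34 with a promoter distance of 1000 bp. It was -1.51 to -0.08 with single replicates left out, and -0.67 with the strongest overlapping replicate entry, an alternative added after the data were seen. The coding GAGAG excess was -0.42 with 1 entry per set, -1.86 with flanks 300 bp away, and -0.14 to 2.32 with single replicates left out. The cause of these changes was not tested. The other GAGAG excesses and the strand difference in 5' UTRs kept their sign under each alternative run, but not their size. The strand difference and its alternatives were both added after the data were seen. With windows of 25 bp to each side the excess was 6.56 points over all exonic peaks, 5.38 in 3' UTRs and 1.86 in noncoding exons, and with flanks 300 bp away it was 7.60, 10.2 in 5' UTRs and 7.56 in 3' UTRs. With 100 bp to each side it was 28.2 in 5' UTRs. The strand difference was 11.9 points with windows of 25 bp to each side. With single replicates left out, the exonic share of the top lists was 3.27 to 3.39%, the exonic GAGAG excess 10.6 to 12.01 points and the strand difference 16.4 to 23.1 points. Samples could not be paired across conditions because all belong to 1 group. The differences that were tested were taken within each replicate.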
